A study of Mus musculus with 8 samples.

Results

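The genes described here are 76 chromatin remodellers and histone lysine modifiers of the mouse hippocampus, measured by RNA sequencing in wild-type mice and in mice without the methyl-DNA reader Mbd2. They were defined by symbol, as the genes named Chd, Smarc, Arid, Kdm, Setd, Kmt2, Hdac or Kat. Subunits of the NuRD complex (Chd3, Chd4, Chd5, Hdac1 and Hdac2), Kdm5c, Kdm5d and pseudogenes were left out. This set was proposed with earlier results of these data known, so that its counts are a description. Of the 19201 genes in the data 77 had such a symbol, and 76 of these reached a mean of 10 normalized counts in the 8 libraries, which put them among the 14504 genes tested. The member closest above this minimum was Kdm4d, with a mean of 15.7, and the gene left out was Arid3c, with a mean of 0.462. All 76 members had a mean above 10 in each genotype, so that none was tested through a high value in 1 group. One of the 76, Chd3os, is a noncoding RNA named as the opposite-strand transcript of Chd3 and encodes no remodeller. The symbols also bring in some proteins with another main substrate, among them Setd3, Hdac6 and Smarcal1.

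The wild-type group were C57BL/6 mice, labelled Control, and the other group were Mbd2-/- mice on a C57BL/6 background. Bilateral hippocampi were taken at 10 to 12 weeks of age, and each of the 4 libraries of a genotype pooled 2 mice, so that a replicate is a pool and not an animal. The deletion was carried in the germ line, in all tissues, and left exon 1 of Mbd2 intact. Totals per gene do not separate reads on that exon from reads on the deleted part, so that the Mbd2 count tests the labels only in part. The values are normalized counts, reads per gene after division by the library's size factor.

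Remodellers of the SWI/SNF, ISWI, CHD and INO80 families use ATP to slide, eject or exchange nucleosomes. Histone lysine modifiers add or remove acetyl and methyl groups on histone tails, where methylation of lysine 4 of histone H3 marks promoters and enhancers and acetylation accompanies open chromatin. Many of these genes are dosage sensitive in the developing brain, and CHD8 and ARID1B are among the genes most often mutated in autism and in intellectual disability.

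Reads on genes numbered 8087750 to 23790825 per library. Mbd2 itself had normalized counts of 295, 363, 371 and 354 in wild-type replicates 1 to 4 and of 244, 239.6, 339 and 217 in Mbd2-/- replicates 1 to 4. The groups overlapped through Mbd2-/- replicate 3, and the log2 fold change was -0.43 (adjusted p = 0.0174, limma, and p = 0.0571 in an exact two-sided permutation test, whose smallest p here is 0.0286). The call was lost when wild-type replicate 3, Mbd2-/- replicate 1 or Mbd2-/- replicate 2 was left out (adjusted p up to 0.0625). One library stood apart. Over all tested genes, differences from the wild-type mean followed transcript length with a rank correlation (Spearman's rho, across genes) between -0.48 and -0.43 in the first 3 Mbd2-/- libraries, against -0.10 in replicate 4, which also differed most from the others of its genotype. Markers of neighbouring tissue and of glia differed between the genotypes as well. All 12 choroid plexus markers were higher in Mbd2-/- libraries (summed normalized count 23969 to 25660.0 in wild-type and 46229 to 52903 in Mbd2-/- libraries), and 9 of 10 thalamus markers were lower (5287 to 5482 in wild-type and 3503 to 4248 in Mbd2-/- libraries). Among 5 markers each, 4 astrocyte, 4 oligodendrocyte and 3 microglia markers were higher. Their sums were 19769.8 to 20689 in wild-type and 25219 to 25611 in Mbd2-/- libraries for astrocytes, 69226 to 70550.4 in wild-type and 82859 to 88238 in Mbd2-/- libraries for oligodendrocytes, and 2976 to 3100.5 in wild-type and 3379.7 to 3648 in Mbd2-/- libraries for microglia. Of 10 markers of hippocampal neurons 2 were lower and 1 higher (median log2 fold change -0.12, with a summed level of 98969 to 101077 in wild-type and of 108181 to 113163 in Mbd2-/- libraries). None of these 47 markers was at 0 in any library. Their part in the results below was not tested.

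Expression of the chromatin genes was compared between the genotypes with limma on log2(normalized count + 1), and genes with an adjusted p under 0.05 (Benjamini-Hochberg, 14504 genes) were called. In Mbd2-/- hippocampi, 18 of the 76 members were called lower and 1 was called higher, where 10.0% of all tested genes were called lower and 12.0% higher. The lower members included the Snf2-family ATPases Chd8, Chd6 and Smarcal1, 5 SWI/SNF subunits, 5 genes of the H3K4 methyltransferase family, 3 lysine demethylases and 2 lysine acetyltransferases, and the higher one was the deacetylase Hdac5. The fitted levels of the 18 lower members changed by -9.87% to -17.5%, and that of Hdac5 was 13.2% higher. Such percentages are converted from the log2 fold changes and can differ slightly from the ratio of the printed means. Over the 76 members the median log2 fold change was -0.10, beside -9.1e-05 over all tested genes, and 58 of the 76 had a value below 0, as had 7259 of all 14504 genes. In hippocampal tissue, fewer cells of a type and less RNA per cell cannot be told apart. The genotypes did not overlap, with all Mbd2-/- libraries lower, in 14 members, and with all higher in 1, beside 11.5% and 12.1% of all tested genes.

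**Figure D1:**
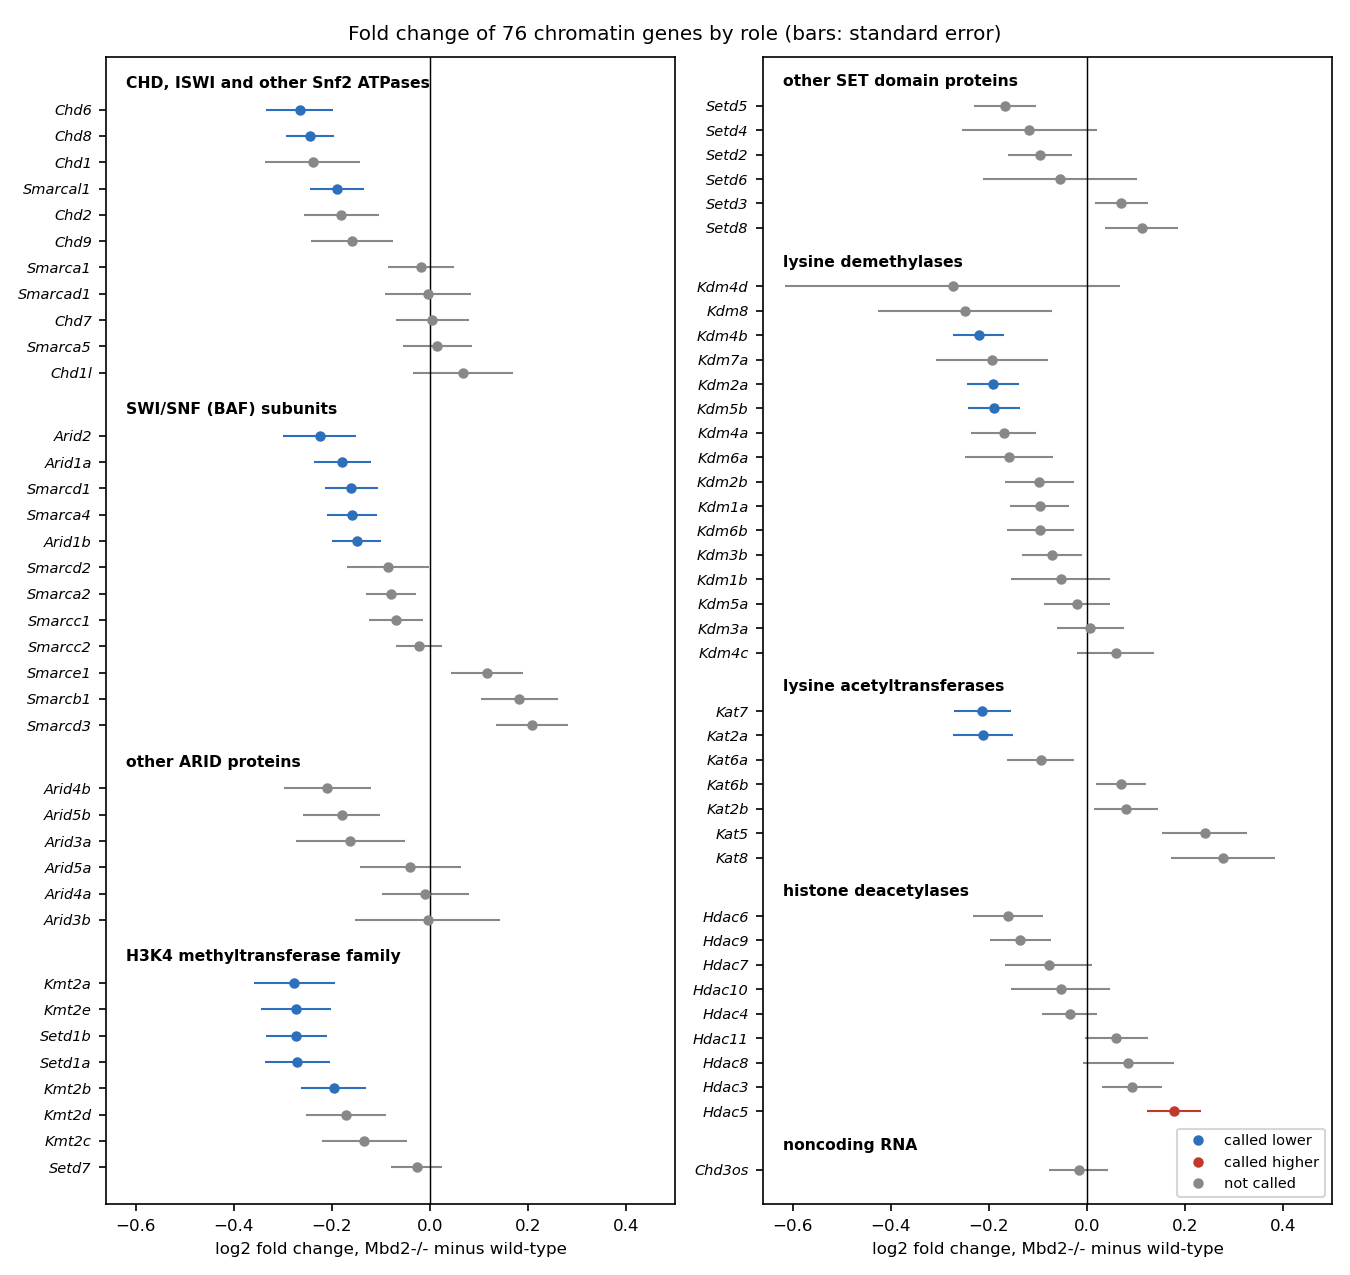
Log2 fold change (Mbd2-/- minus wild-type, horizontal axis) of the 76 members, grouped by role, with bars of 1 standard error and colours for genes called lower, called higher or not called at an adjusted p under 0.05 (limma). The 5 called genes of the H3K4 methyltransferase family lie at -0.28 to -0.20, and Hdac5 at 0.18 is the one gene called higher.

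The count of 18 depended on which libraries entered and on transcript length and GC content. Without Mbd2-/- replicate 4, 31 members were called lower and 5 higher, beside 17.6% and 17.9% of all genes. With any one of the other 7 libraries left out, 7 to 14 members were called lower and 0 or 1 higher, beside 5.98% to 9.51% and 8.07% to 10.7% of all genes in the same fits. When the trend of fold change with transcript length was removed from each library, 5 members were called lower and 4 higher, of 75 with a length, beside 6.80% and 7.97% of all genes. With the trend of fold change with GC content removed instead, 28 members were called lower and 5 higher, of 74 with a GC content, beside 17.3% and 15.7% of all genes.

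Chd8, an ATPase of the CHD family found at active promoters, had the smallest p of all 76 members. It lies at chr14:52817826-52857466 of mm9. Its normalized counts were 1914, 1875, 1942 and 1819 in wild-type replicates 1 to 4 and 1574, 1573, 1579.5 and 1640.4 in Mbd2-/- replicates 1 to 4. All 4 Mbd2-/- libraries lay below all wild-type libraries, and replicates 1 to 3 were nearly equal. The mean went from 1887 ± 53.4 to 1592 ± 32.5 (SD, n = 4 libraries). The fitted level fell by 15.6%, with an adjusted p of 0.00255 (log2 fold change -0.25 ± 0.05, standard error). Chd8 remained called with each of the 8 libraries left out in turn (adjusted p at most 0.0143) and under 11 of 12 other settings with all libraries in place. After removal of the length trend it was not called (log2 fold change -0.11, adjusted p = 0.119).

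Arid1b, the DNA-binding ARID subunit that defines a form of the canonical BAF complex, lies at chr17:4994332-5347656 of mm9. Its normalized counts were 2277, 2419, 2450.4 and 2275 in wild-type and 2089, 2160.1, 2042 and 2199 in Mbd2-/- libraries, replicates 1 to 4 in each case. The groups were separate, and the gap between them was narrow. The mean went from 2355 ± 92.6 to 2122 ± 70.4 (SD, n = 4). The fitted level fell by 9.87%, with an adjusted p of 0.0425 (log2 fold change -0.15 ± 0.05, standard error). The call was close to the threshold. Of the 8 fits with 1 library left out only that without Mbd2-/- replicate 4 called it (adjusted p = 0.00572), and in the other 7 the adjusted p reached 0.132. Once the length trend was removed the sign changed (log2 fold change 0.012, adjusted p = 0.914).

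Annotated promoter windows of Chd8, of Arid1b, of Kat2a (which stayed lower after the length trend was removed) and of Hdac5 (the one member called higher) are shown because Mbd2 binds methylated CpG. They run from 250 bases before to 50 bases after the annotated start, from RefSeq on GRCm38.p6. Each is written 5′ to 3′ on the strand of the gene, and capitals mark CG dinucleotides. In the Arid1b window a reading frame without a stop codon runs from an ATG to the end of the window. That window may therefore lie within the transcribed gene, and its CG count may not be that of a promoter. The Chd8 window is chr14:52257711-52258010 on the minus strand, the Arid1b window chr17:4994824-4995123 on the plus strand, the Kat2a window chr11:100712418-100712717 on the minus strand and the Hdac5 window chr11:102230123-102230422 on the minus strand.
Chd8: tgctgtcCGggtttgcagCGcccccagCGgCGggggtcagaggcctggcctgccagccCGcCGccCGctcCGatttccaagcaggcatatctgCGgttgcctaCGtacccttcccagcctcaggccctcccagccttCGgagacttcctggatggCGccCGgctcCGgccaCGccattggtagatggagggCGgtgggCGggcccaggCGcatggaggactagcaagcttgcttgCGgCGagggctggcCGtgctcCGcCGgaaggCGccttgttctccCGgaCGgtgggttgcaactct
Arid1b: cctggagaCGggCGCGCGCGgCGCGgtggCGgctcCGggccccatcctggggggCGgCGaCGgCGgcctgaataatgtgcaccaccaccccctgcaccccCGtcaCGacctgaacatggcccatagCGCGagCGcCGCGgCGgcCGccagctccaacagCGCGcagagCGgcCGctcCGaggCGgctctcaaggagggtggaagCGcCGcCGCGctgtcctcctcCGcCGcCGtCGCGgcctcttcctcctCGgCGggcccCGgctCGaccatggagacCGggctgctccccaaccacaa
Kat2a: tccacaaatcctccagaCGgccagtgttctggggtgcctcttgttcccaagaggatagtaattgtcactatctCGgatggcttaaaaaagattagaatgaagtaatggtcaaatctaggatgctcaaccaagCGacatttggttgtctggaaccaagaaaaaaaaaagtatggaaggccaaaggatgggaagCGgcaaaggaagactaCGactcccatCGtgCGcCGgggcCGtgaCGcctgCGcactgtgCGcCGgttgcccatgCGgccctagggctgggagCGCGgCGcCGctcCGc
Hdac5: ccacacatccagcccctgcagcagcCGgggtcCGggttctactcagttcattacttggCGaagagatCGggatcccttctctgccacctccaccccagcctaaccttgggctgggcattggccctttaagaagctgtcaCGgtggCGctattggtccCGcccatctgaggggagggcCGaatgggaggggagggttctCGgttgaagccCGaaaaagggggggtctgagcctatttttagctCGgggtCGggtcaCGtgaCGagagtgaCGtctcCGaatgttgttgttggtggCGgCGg

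These windows of 300 bases hold 26 CG dinucleotides in Chd8, 42 in Arid1b, 19 in Kat2a and 18 in Hdac5. The RefSeq table held 78 promoters of 57 of the 76 members, with a median of 23.5 CG, beside a median of 7 over all 32851 promoters in it, which include genes that are silent in the hippocampus. The 13 promoters of 12 members called lower had a median of 26 CG and a range of 13 to 42, and Hdac5 lies within this range. The upper end is the Arid1b window, which may lie within the transcribed gene. The GC box GGGCGG, bound by Sp1 and its relatives, occurred on either strand in 65.4% of the member promoters and in 35.7% of all promoters. It was found 3 times in the Chd8 window and once each in those of Arid1b and Hdac5. The ETS core CCGGAAG occurred in 15.4% of the member promoters and in 8.86% of all, and in 1 of the 4 windows shown, that of Chd8. DNA methylation of these windows was not analysed here.

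Among the 11 CHD, ISWI and other Snf2 ATPases, 3 were called lower and 0 higher, with a median log2 fold change of -0.16. Besides Chd8 these were Chd6 and Smarcal1. The share called lower was 27.3%, beside 10.0% of all tested genes and 25.1% of those of at least 5000 bases. The median transcript of this role was 7916 bases. Chd6, a large CHD ATPase, had normalized counts of 1523, 1456, 1583 and 1518 in wild-type and 1138, 1260.2, 1209.8 and 1468 in Mbd2-/- libraries. Mbd2-/- replicate 4 lay just above the lowest wild-type library and the other 3 well below it, and the fitted level fell by 16.8% (log2 fold change -0.27, standard error 0.07, adjusted p = 0.0121). The call was lost without Mbd2-/- replicate 1 (adjusted p = 0.0524) and with the length trend removed (0.124). Smarcal1, an annealing helicase that restarts stalled replication forks, had the highest level of this role, at a mean normalized count of 263 per kb of its longest transcript. It was measured at 1142, 1134, 1103 and 1102 in wild-type and at 1010.1, 977, 915 and 1028 in Mbd2-/- libraries, without overlap (log2 fold change -0.19, adjusted p = 0.0215). With its shorter transcript of 4003 bases it was still called after the length trend was removed (log2 fold change -0.15, adjusted p = 0.0461). It lost the call in 5 of the 8 fits with 1 library left out, those without wild-type replicates 1, 2 or 4 or Mbd2-/- replicates 2 or 3 (adjusted p up to 0.0666).

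Chd1, Chd2 and Chd9 were not called, and they were low in Mbd2-/- replicates 1 to 3 and not in replicate 4. Chd1, which binds H3K4 trimethylation and remodels nucleosomes during transcription, was at 374 to 408 in wild-type libraries, at 335, 298 and 299.7 in Mbd2-/- replicates 1 to 3 and at 426 in replicate 4. Chd2, a gene of childhood epilepsy, was at 776 to 864 in wild-type libraries, at 702, 711 and 615 in Mbd2-/- replicates 1 to 3 and at 824 in replicate 4. Without that library the adjusted p was 3.86e-04 for Chd1, 0.00214 for Chd2 and 0.00190 for Chd9, each lower. These genes were singled out after their values were seen. The others of this role, Chd1l, Chd7, Smarca1, Smarca5 (Snf2h, the widely expressed ISWI ATPase) and Smarcad1, had log2 fold changes from -0.018 in Smarca1 to 0.067 in Chd1l. Chd7, the gene of CHARGE syndrome, had a wild-type mean of 494 ± 35.8 and an Mbd2-/- mean of 495 ± 38.8 (SD, n = 4).

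Of the 12 SWI/SNF subunits, 5 were called lower and 0 higher, and the median log2 fold change was -0.083. The 5 were the ATPase Smarca4, the ARID subunits Arid1a, Arid1b and Arid2, and Smarcd1. The share called lower was 41.7%, beside 10.0% of all tested genes and 25.1% of those of at least 5000 bases. The median transcript of these subunits was 5843 bases. Smarca4 (Brg1) was at 2304, 2288, 2375 and 2367 in wild-type and at 2058, 2112, 2227 and 1969 in Mbd2-/- libraries. In this gene, unlike Chd1, replicate 4 was the lowest Mbd2-/- library, and the fitted level fell by 10.4% (log2 fold change -0.16, adjusted p = 0.0351). Its paralogue Smarca2 (Brm), the alternative ATPase of the complex, was at 3167, 3408, 3515 and 3236 in wild-type and 3048, 3234, 3032 and 3295 in Mbd2-/- libraries, with a log2 fold change of -0.08 and an adjusted p of 0.286. Whether the 2 paralogues differed in their change was not tested.

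Arid1a, the paralogue of Arid1b in the canonical complex, was at 2376, 2452, 2695 and 2434 in wild-type and 2250.0, 2253, 1996 and 2301 in Mbd2-/- libraries, without overlap, and its fitted level fell by 11.6% (adjusted p = 0.0371). Mbd2-/- replicate 3 was the lowest of its group by a wide gap. Arid2, the ARID subunit of the PBAF form, was at 773, 840.4, 778 and 817 in wild-type and 709, 618, 634 and 795 in Mbd2-/- libraries, with replicate 4 inside the wild-type range (log2 fold change -0.23, adjusted p = 0.0402). Smarcd1, a core BAF60 subunit, was at 1523, 1426, 1438 and 1435 in wild-type and 1297, 1323, 1369 and 1219 in Mbd2-/- libraries, without overlap (log2 fold change -0.16, adjusted p = 0.0421). These calls were fragile. With 1 library left out, Arid1a and Arid2 were called only without Mbd2-/- replicate 4 (adjusted p of 0.00357 and 3.79e-04) and otherwise reached 0.138 and 0.145, and Smarca4 and Smarcd1 were called only without Mbd2-/- replicate 3 or 4 and otherwise reached 0.101 and 0.132. After removal of the length trend, Smarcd1, with a transcript of 3153 bases, was called (log2 fold change -0.16, adjusted p = 0.0308), and Smarca4 (adjusted p = 0.573), Arid1a (0.575) and Arid2 (0.392) were not.

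The 7 subunits that were not called differed in direction. Smarcd3 (BAF60c), the BAF60 subunit of heart and neural forms of the complex, was at 664, 675, 742 and 697 in wild-type and 909, 808, 800.1 and 702 in Mbd2-/- libraries, with a log2 fold change of 0.21 and an adjusted p of 0.0512. Smarcb1 (Snf5), a core subunit and tumour suppressor, was at 618 to 668 in wild-type libraries, at 816, 783 and 735 in Mbd2-/- replicates 1 to 3 and at 608 in replicate 4 (log2 fold change 0.18, adjusted p = 0.109). Replicate 4 lay within the wild-type range of Smarcd3 and below that of Smarcb1. Without it both were called higher (adjusted p = 9.81e-04 for Smarcd3 and 6.81e-04 for Smarcb1), and with the length trend removed as well (0.0292 and 0.0468). These 2 genes were also singled out after their values were seen. Smarcc2 (BAF170), the subunit with the highest level per kb (757), had a wild-type mean of 3762 ± 143 and an Mbd2-/- mean of 3703 ± 85.4 (SD, n = 4), with an adjusted p of 0.773. Smarcc1, Smarcd2 and Smarce1 had log2 fold changes of -0.069, -0.086 and 0.12.

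The 6 other ARID proteins (Arid3a, Arid3b, Arid4a, Arid4b, Arid5a and Arid5b) had none called in limma, and 2 of them had an unadjusted p under 0.05. All 6 log2 fold changes were below 0, from -0.21 in Arid4b to -0.0048 in Arid3b. Arid4b, a subunit of Sin3 deacetylase complexes, had the smallest p and the highest level per kb (138) of this role. It was at 862, 846, 928 and 824 in wild-type and 765, 744, 612 and 894 in Mbd2-/- libraries, where replicate 4 again lay inside the wild-type range (adjusted p = 0.101, and 0.00135 without that library). Arid5b, a partner of the demethylase Phf2, had no overlap between the genotypes (388 to 439 in wild-type and 317 to 386 in Mbd2-/- libraries) but an adjusted p of 0.109.

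**Figure D2:**
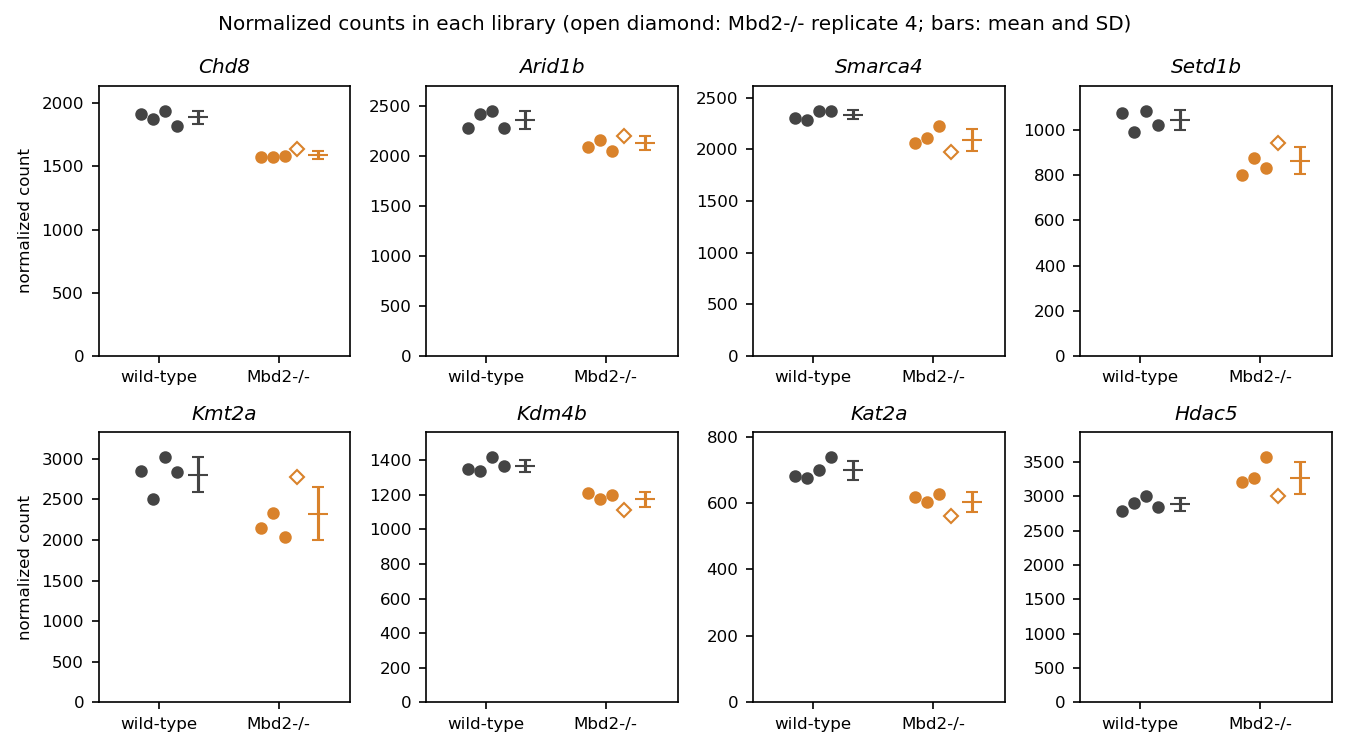
Normalized counts (vertical axis, from 0) of 8 members in each wild-type (grey) and Mbd2-/- (orange) library, with the mean and SD of 4 libraries beside them and Mbd2-/- replicate 4 as an open diamond. The groups overlap in Kmt2a alone, through replicate 4 at 2779, and Hdac5 is the one gene with higher counts in Mbd2-/- libraries.

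The H3K4 methyltransferase family had 5 of 8 genes called lower and 0 higher, and all 8 log2 fold changes were below 0, with a median of -0.23. Their transcripts are long, with a median of 7663 bases in the 7 with a length, and of all 2827 tested genes of at least 5000 bases 25.1% were called lower and 2197 had a value below 0. Setd1a and Setd1b are the catalytic subunits of the complexes that place most H3K4 trimethylation. Setd1b was at 1075, 989, 1086 and 1023 in wild-type and 802, 878, 834 and 944 in Mbd2-/- libraries, without overlap, and its fitted level fell by 17.2% (log2 fold change -0.27, standard error 0.06, adjusted p = 0.00573). Setd1a was at 719, 711, 706 and 635 in wild-type and 548, 573, 548 and 628 in Mbd2-/- libraries, also without overlap, and its fitted level fell by 17.1% (log2 fold change -0.27, standard error 0.07, adjusted p = 0.00877). Both remained called with each library left out in turn (adjusted p at most 0.0277 and 0.0364). Once the length trend was removed they lay just above the threshold (adjusted p = 0.0521 for Setd1b and 0.0588 for Setd1a).

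Kmt2a (Mll1), a methyltransferase required for memory in adult neurons, was at 2851, 2508, 3023 and 2843 in wild-type and 2147, 2337, 2043 and 2779 in Mbd2-/- libraries. Replicate 4 and wild-type replicate 2 made the groups overlap, and the fitted level fell by 17.5% (log2 fold change -0.28, standard error 0.08, adjusted p = 0.0262). Kmt2e (Mll5), which carries a SET domain without known methyltransferase activity, was at 1369.9, 1408, 1450.4 and 1313 in wild-type and 1179.9, 1093, 1012 and 1318 in Mbd2-/- libraries (log2 fold change -0.27, adjusted p = 0.0127). Kmt2b (Mll2 in older mouse naming), a close relative of Kmt2a, was at 907, 866, 976 and 813 in wild-type and 743, 742, 819 and 799.5 in Mbd2-/- libraries (log2 fold change -0.20, adjusted p = 0.0406). In both genes 1 Mbd2-/- library reached into the wild-type range. With 1 library left out, Kmt2a was called when that library was wild-type replicate 2 or Mbd2-/- replicate 4 and otherwise reached 0.0902. Kmt2e lost its call when wild-type replicate 3 or Mbd2-/- replicate 2 was absent (up to 0.0519), and Kmt2b without wild-type replicates 1, 2 or 3 or Mbd2-/- replicates 1 or 2 (up to 0.148). After removal of the length trend the adjusted p was 0.210 for Kmt2a and 0.0658 for Kmt2e, and for Kmt2b no length was matched.

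Kmt2c and Kmt2d, which place H3K4 monomethylation at enhancers, were not called. Kmt2d, the gene of Kabuki syndrome and the member with the highest mean count, varied widely among wild-type libraries (4913, 4098, 5434 and 4600.1) and was at 3778, 4294, 4036 and 4775 in Mbd2-/- libraries (log2 fold change -0.17, adjusted p = 0.145). Kmt2c was at 2209.7 to 2527 in wild-type libraries and at 2033, 2212, 1924 and 2728 in Mbd2-/- libraries, with replicate 4 above all wild-type libraries (log2 fold change -0.13, adjusted p = 0.292). Setd7, a monomethyltransferase of H3K4 and of other proteins and the gene with the highest level per kb of this role (549), had means of 4104 ± 83.6 and 4031 ± 257 (SD, n = 4, log2 fold change -0.028).

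The 6 other SET domain proteins (Setd2, Setd3, Setd4, Setd5, Setd6 and Setd8) had none called in limma and 1 with an unadjusted p under 0.05, and their median log2 fold change was -0.075. Setd5, a gene of intellectual disability, had the smallest p. It was at 1305, 1306, 1342 and 1338 in wild-type and 1144, 1186, 1069.5 and 1326 in Mbd2-/- libraries (log2 fold change -0.17, adjusted p = 0.0655), and without replicate 4, which lay inside the wild-type range, the adjusted p was 0.00106. Setd3, an actin histidine methyltransferase, had the highest level per kb (631), with means of 1883 ± 101 and 1976 ± 72.8 (SD, n = 4). Setd2, which trimethylates lysine 36 of histone H3, had a log2 fold change of -0.10 (adjusted p = 0.320), and Setd8, which monomethylates lysine 20 of histone H4, one of 0.11.

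Of the 16 lysine demethylases, 3 were called lower and 0 higher, and 14 had a log2 fold change below 0, with a median of -0.13. The share called lower was 18.75%, beside 10.0% of all tested genes and 25.1% of those of at least 5000 bases. The median transcript of the demethylases was 5056 bases. Kdm4b, a demethylase of trimethylated H3K9, was at 1350.4, 1338, 1418 and 1364 in wild-type and 1211, 1177, 1199 and 1109.9 in Mbd2-/- libraries. All Mbd2-/- libraries lay below the wild-type range, replicate 4 the lowest of them, and the fitted level fell by 14.2% (log2 fold change -0.22, standard error 0.05, adjusted p = 0.00741). Kdm4b was called with each library left out (adjusted p at most 0.0331) and with the length trend removed (0.0466), and it was the one member of the 76 to pass in all of the 20 alternatives. Kdm5b, which removes H3K4 trimethylation, was at 1646, 1577, 1646 and 1670.4 in wild-type and 1454, 1467, 1331 and 1485 in Mbd2-/- libraries, without overlap (log2 fold change -0.19, adjusted p = 0.0179). Kdm2a, a demethylase of H3K36 that binds unmethylated CpG islands, was at 1434, 1500.2, 1527 and 1451 in wild-type and 1239, 1323, 1248 and 1369 in Mbd2-/- libraries, without overlap as well (log2 fold change -0.19, adjusted p = 0.0182). Kdm5b lost its call without wild-type replicates 1, 3 or 4 (up to 0.0645) and Kdm2a without wild-type replicates 2 or 3 or Mbd2-/- replicate 1 (up to 0.0651), and neither was called with the length trend removed (0.232 and 0.309).

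The 13 other demethylases were not called. Kdm1a (Lsd1), with the highest level per kb of the role (282), had a wild-type mean of 882 ± 23.4 and an Mbd2-/- mean of 826 ± 55.2 (SD, n = 4), with an adjusted p of 0.273. Kdm7a, a demethylase of H3K9 and H3K27 chosen here after its values were seen, was at 1422 to 1542 in wild-type libraries, at 1167, 1301 and 1066 in Mbd2-/- replicates 1 to 3 and at 1742 in replicate 4, so that its adjusted p was 0.249 with and 6.80e-05 without that library. Kdm4a and the X-linked H3K27 demethylase Kdm6a had log2 fold changes of -0.17 and -0.16 (adjusted p = 0.0781 and 0.222). The remaining 9 (Kdm1b, Kdm2b, Kdm3a, Kdm3b, Kdm4c, Kdm4d, Kdm5a, Kdm6b and Kdm8) ranged from -0.27 to 0.059. Kdm4d, the member with the lowest mean, was at 22.5, 20.3, 8.20 and 18.1 in wild-type and 10.2, 19.2, 7.97 and 19.2 in Mbd2-/- libraries (standard error 0.34, adjusted p = 0.603).

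Among the 7 lysine acetyltransferases, 2 were called lower and 0 higher, and the median log2 fold change was 0.07. The share called lower was 28.6%, beside 10.0% of all tested genes. Kat7 (Hbo1), which acetylates H3K14 and H4, had the highest level per kb (292) and was at 1103, 1176, 1087 and 1092 in wild-type and 965, 1036, 897 and 949 in Mbd2-/- libraries (log2 fold change -0.21, standard error 0.06, adjusted p = 0.0162). Kat2a (Gcn5), the acetyltransferase of the SAGA complex, was at 682, 674, 698 and 738 in wild-type and 619, 604, 626 and 562 in Mbd2-/- libraries (log2 fold change -0.21, standard error 0.06, adjusted p = 0.0208). In both the groups did not overlap, and replicate 4 lay with or below the other Mbd2-/- libraries. Both were called with the length trend removed (adjusted p = 0.0200 for each), their transcripts being 3560 and 3269 bases long. Kat7 lost its call without wild-type replicate 2 (adjusted p = 0.0583) and Kat2a without wild-type replicates 3 or 4 or Mbd2-/- replicate 2 (up to 0.0849).

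Kat5 (Tip60) and Kat8 (Mof) pointed the other way without being called. Kat5 was at 427 to 495 in wild-type libraries, at 587, 588 and 580.2 in Mbd2-/- replicates 1 to 3 and at 447 in replicate 4 (log2 fold change 0.24, adjusted p = 0.0566). Kat8 was at 139 to 160.3 in wild-type libraries, at 211, 196 and 183 in Mbd2-/- replicates 1 to 3 and at 147 in replicate 4 (log2 fold change 0.28, adjusted p = 0.0721). Without replicate 4 both were called higher (1.99e-04 and 0.00251), and with the length trend removed neither was (0.143 and 0.427). These 2 genes were chosen for description after their values were seen, and exons of both overlap a gene on the opposite strand (Rnaseh2c and Prss8), whose reads could not be told apart without strand. Kat2b, Kat6a and Kat6b had log2 fold changes of 0.08, -0.094 and 0.07.

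The 9 histone deacetylases were the role with a gene called higher, which is 11.1% of them, beside 12.0% of all tested genes. Hdac5, a class IIa deacetylase that leaves the nucleus on neuronal activity, lies at chr11:102055746-102091480 of mm9. Its normalized counts were 2777, 2901, 2999 and 2844 in wild-type and 3211, 3270.3, 3569 and 3009 in Mbd2-/- libraries. All Mbd2-/- libraries lay above all wild-type libraries, with Mbd2-/- replicate 4 just above wild-type replicate 3. The mean went from 2880.3 ± 94.0 to 3265 ± 232 (SD, n = 4). The fitted level was 13.2% higher (log2 fold change 0.18, standard error 0.06, adjusted p = 0.0292). Although its transcript of 5406 bases is longer than 5000, a class in which 2.72% of genes were called higher, removal of the length trend raised the log2 fold change to 0.26 (adjusted p = 0.00544). Hdac5 was called under all 12 settings with all libraries in place. With 1 library left out it was called when that was wild-type replicate 3 or Mbd2-/- replicate 4, and otherwise the adjusted p reached 0.0975.

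No other deacetylase was called. Hdac11, the class IV enzyme with the highest level per kb among all 75 members with a length (866), was at 2133 to 2389 in wild-type and 2067 to 2579 in Mbd2-/- libraries (adjusted p = 0.539). The other class IIa enzymes, Hdac4, Hdac7 and Hdac9, had log2 fold changes of -0.035, -0.078 and -0.14, and Hdac3, the class I enzyme of the NCoR complex, had one of 0.092. Hdac6, a tubulin deacetylase, Hdac8 and Hdac10 had values of -0.16, 0.085 and -0.053. The noncoding Chd3os had means of 897 ± 47.4 and 886 ± 38.8 (SD, n = 4), a log2 fold change of -0.017 with an adjusted p of 0.868.

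**Figure D3:**
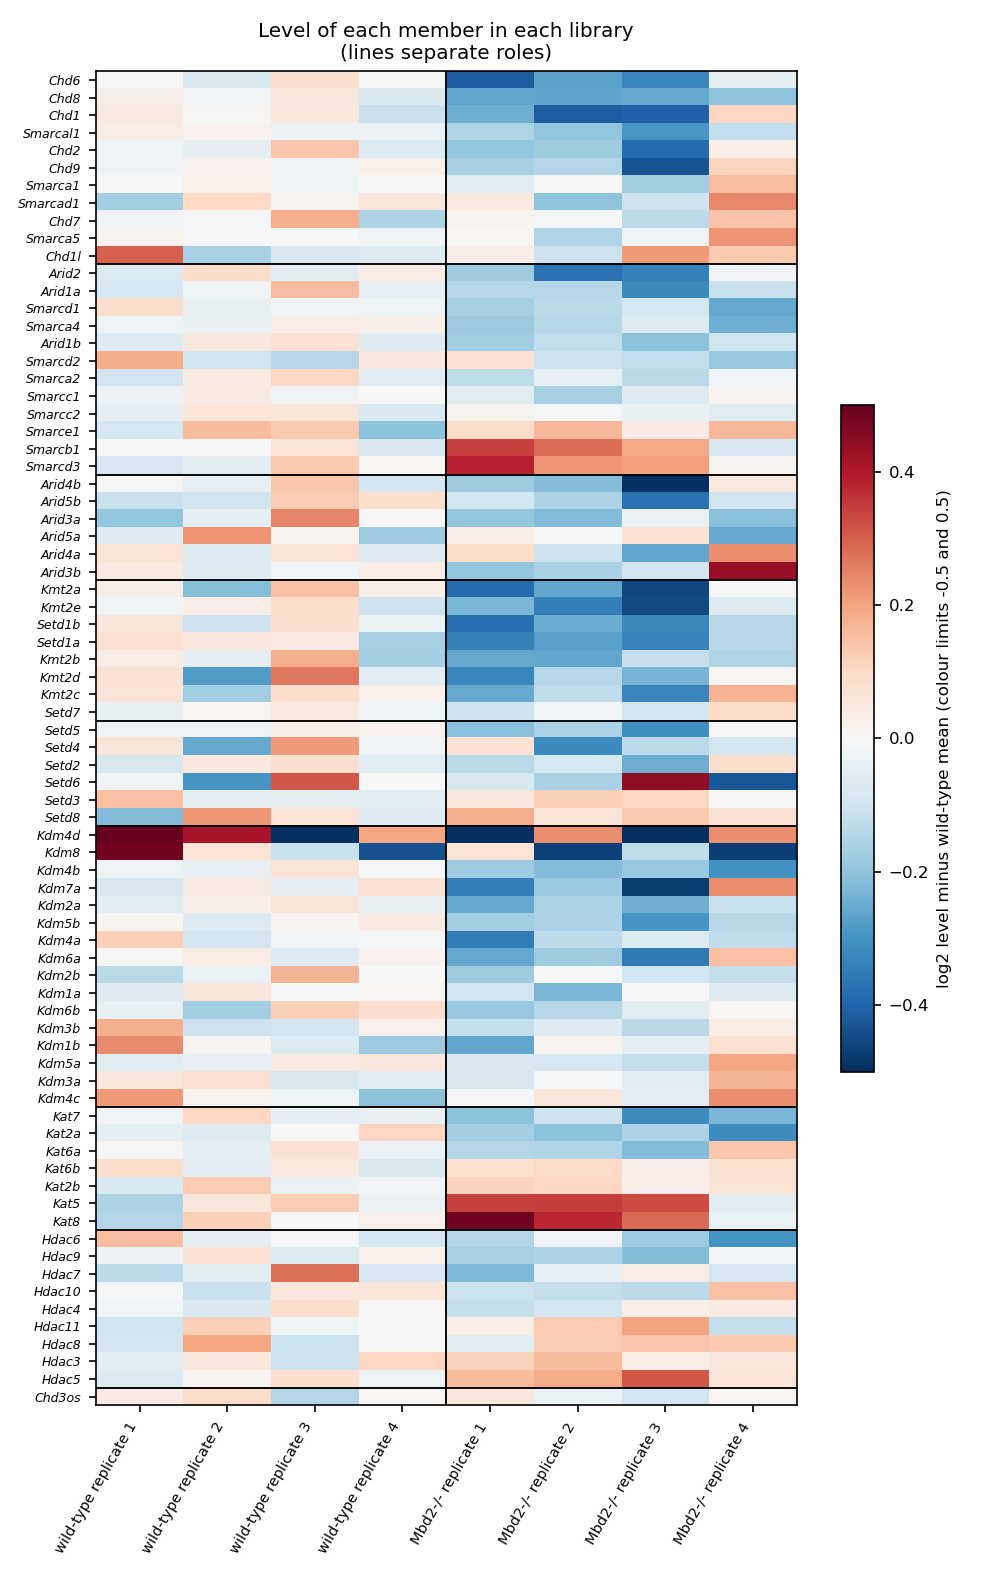
Log2 level of each of the 76 members (rows, grouped by role) in each library (columns) minus the mean of the wild-type libraries, or of the other 3 for a wild-type library, with colour limits at -0.5 and 0.5. The median over members is -0.14, -0.13 and -0.13 in Mbd2-/- replicates 1 to 3 and 0.0034 in replicate 4.

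The members as a whole were then followed library by library. Measured against the wild-type mean on the log2 scale, the median over the 76 members was -0.14, -0.13, -0.13 and 0.0034 in Mbd2-/- replicates 1 to 4, with 53, 58, 57 and 37 members below 0. In the wild-type libraries, each set against the other 3, it lay between -0.018 and 0.046. So 3 Mbd2-/- libraries lay below every wild-type library and the fourth lay among them. All tested genes of at least 5000 bases showed this as well, with medians of -0.16, -0.12, -0.18 and -0.00015, and over all genes the median lay between -6.2e-05 and 0.012 in these libraries. The H3K4 methyltransferase family had medians of -0.29, -0.25 and -0.33 in replicates 1 to 3 and -0.04 in replicate 4. The SWI/SNF subunits had medians of -0.093, -0.11, -0.077 and -0.071.

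The members have long transcripts, with a median of 5259 bases for the longest annotated transcript of 75 of them, beside 3188.5 bases over all tested genes with a length. Members of at least 5000 bases, 40 in number, had 12 called lower (30.0%) and 1 higher, and a median log2 fold change of -0.16. Of all 2827 tested genes of that length 25.1% were called lower, and their median was -0.12. The 35 shorter members had 5 called lower (14.3%), 0 higher and a median of -0.022, where 6.32% of all shorter genes were called lower, 14.4% were called higher and the median was 0.037. The share called lower was near that of all genes among the long members and above it among the shorter ones. Once the length trend was removed, the median over members was -0.0025 and that over all genes -0.0091. The members then called lower were Smarcal1, Smarcd1, Kat7, Kat2a and Kdm4b, each among the 18, and those called higher were Hdac5, Smarcb1, Smarcd3 and Kat6b. The division at 5000 bases was chosen after the data were seen.

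**Figure D4:**
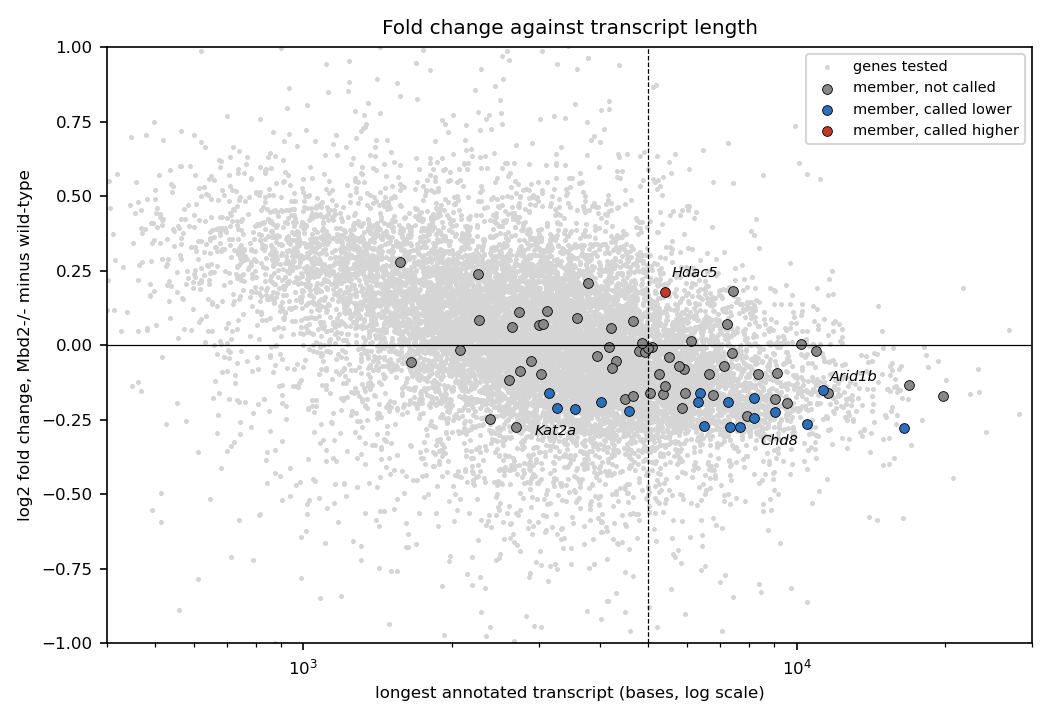
Log2 fold change (Mbd2-/- minus wild-type) against the length of the longest annotated transcript (bases, log axis) for tested genes (light grey) and for the 75 members with a length (coloured by call), with a dashed line at 5000 bases and 144 genes outside the axes. Fold changes fall with length in all genes (Spearman's rho -0.46) and in the members (-0.39), and Hdac5 is the one point called higher.

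The partners of these enzymes in their complexes were taken from a list by role, of which 85 genes were tested. Among them 11 were called lower and 5 higher, with a median log2 fold change of -0.076, so that 12.9% were called lower and 5.88% higher, beside 10.0% and 12.0% of all genes. Of 16 other lysine methyltransferases, 2 were lower. Dot1l, the methyltransferase of H3K79, was at 599.5, 546, 639.9 and 519 in wild-type and 416, 452, 397 and 457 in Mbd2-/- libraries, without overlap, and had the largest decrease of the called partners (log2 fold change -0.42, standard error 0.08, adjusted p = 0.00142). It was called in all 20 alternatives, with the length trend removed too (log2 fold change -0.31, adjusted p = 0.00480). Setdb1, an H3K9 methyltransferase, was at 564 to 618 and 448 to 537 (log2 fold change -0.25, adjusted p = 0.0164), and lost its call without wild-type replicates 1 or 4 or Mbd2-/- replicate 1 (up to 0.0620).

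The 11 COMPASS partners, which assemble with the H3K4 methyltransferases, had 2 lower (18.2%) and 1 higher (9.09%), beside 10.0% and 12.0% of all tested genes. Hcfc1 (2312 to 2437 in wild-type and 1905 to 2109 in Mbd2-/- libraries) and Ncoa6 (1023 to 1079 and 818 to 1010.0) were lower, with log2 fold changes of -0.20 and -0.20 (adjusted p = 0.0122 and 0.0372). Dpy30, a core subunit with a transcript of 799 bases, was at 105 to 139 and 143 to 171 and was higher (log2 fold change 0.40, adjusted p = 0.0144). With 1 library left out, Hcfc1 lost its call without wild-type replicate 4 (0.0537), Dpy30 without replicate 1 of either genotype (up to 0.0532), and Ncoa6 without any but Mbd2-/- replicate 4 (up to 0.109). After the length trend was removed none of these 3 was called (adjusted p of 0.404, 0.315 and 0.557). Of 14 other acetyltransferases and partners, Ep300 (p300, log2 fold change -0.19, adjusted p = 0.0494) and Brpf1 (-0.24, 0.0215) were lower, and of 3 other demethylases Phf8 was (-0.26, 0.0306). With 1 library left out, Ep300 was called only without Mbd2-/- replicate 4 (up to 0.147), Phf8 only without Mbd2-/- replicate 2 or 4 (up to 0.105), and Brpf1 lost its call without wild-type replicates 1, 3 or 4 (up to 0.0809).

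The 16 BAF and PBAF partners had 1 lower (6.25%) and 2 higher (12.5%), beside 10.0% and 12.0% of all tested genes. Brd9, the bromodomain subunit of the noncanonical complex, was lower (log2 fold change -0.17, adjusted p = 0.04997), and Bcl7b (0.23, 0.0482) and Bcl7c (0.46, 0.0405) were higher. Of 12 genes of the ISWI, INO80, SRCAP and ATRX group the ATPase Srcap was lower (-0.17, 0.0473). Among 13 deacetylase partners and sirtuins, Rcor1 (CoREST, -0.28, 0.0385) and Sin3b (-0.19, 0.0388), a scaffold of Sin3 complexes, were lower, and Sirt2 (0.21, 0.0193) and Sirt3 (0.26, 0.0353) were higher. Sirt2 is abundant in oligodendrocytes, of whose 5 markers 4 were higher in these libraries, and the part of these cells in its change was not tested. With 1 library left out, Bcl7b, Srcap and Sirt3 were called only without Mbd2-/- replicate 4 (otherwise up to 0.154, 0.160 and 0.115), Brd9 only without Mbd2-/- replicate 3 or 4 (up to 0.151), Bcl7c only without Mbd2-/- replicate 2 or 4 (up to 0.113), Rcor1 only when wild-type replicate 3 or either of Mbd2-/- replicates 2 and 4 was absent (up to 0.110) and Sirt2 only when wild-type replicate 2 or either of Mbd2-/- replicates 3 and 4 was absent (up to 0.0804). Sin3b was called in 2 of the 8 such fits. After removal of the length trend, 2 partners were called lower, Dot1l and Brd9, and 4 higher, Bcl7c, Rsf1, Whsc1 and Ash1l, which is 2.35% and 4.71% of the partners beside 6.80% and 7.97% of all genes.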

How the data were processed

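Total RNA of pooled hippocampi was depleted of ribosomal RNA and sequenced as paired ends. According to the methods and the submitters' processing notes, reads were deduplicated, aligned to mm9 with STAR and compared with DESeq2, and the counting tool, its strand setting and tool versions are not given in the sources used here. The deposited signal is a normalized count, that is, the authors' reads per gene divided by the size factor of the library. The authors' fold changes, test statistics and p-values, also in that table, were not used. Whole reads were recovered for 100% of the values, to within 0.01 of a read, and 1 read was worth 0.531 to 1.59 normalized counts.

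Genes with a mean of at least 10 were tested in limma 3.58.1 (R 4.3.3) on log2(value + 1), with trended and robust moderation of the variance, so that folds of low genes are understated. Values after ± are SDs over 4 libraries unless marked as standard errors. As replicates are pools of 2 mice, p-values rest on variation between pools, moderated over all genes, and not on variation between animals. Calls on recovered reads with edgeR 4.0.16, limma-voom and DESeq2 1.42.0, other scalings, pseudocounts of 0.5 and 5, other filters, and fits without a length or GC trend (loess, span 0.5) or without 1 library served as alternatives. On simulated counts the procedure recovered 37 of 67 genes changed 1.3-fold, 55 of 67 changed 1.5-fold and 63 of 66 changed 2-fold, with 8 false calls. Smaller folds, such as those of the called members, were not simulated, nor was a length trend or a deviating library. A member that was not called is therefore not shown to be unchanged. Lengths are from GENCODE vM1 on mm9, and 75 of 76 members matched, some through a synonym. Levels per kb are mean normalized counts divided by the longest transcript. Exons of 18 members, among them Chd8, Kmt2e, Smarcd1, Smarcd3, Kat5 and Kat8 (opposite strand) and Setd1a (same strand), overlap another annotated gene, from which reads could be shared.

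Members and lists were chosen with earlier results of these data known. Genes were named by rule: Chd8 and Arid1b, all called members, the member of each role with the smallest p and that with the highest level per kb, the members at the minimum, up to 3 called partners per list, and Mbd2. Other members are given by symbol and value for completeness, and Sin3b and the genes so marked were chosen after their values were seen.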

Additional observations from a re-analysis of the deposited data

Results flagged for a closer look

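In each genotype the normalized counts of 44 genes named by rule were searched for a library whose gap to the nearest of the other 3, divided by the range of the group, was above Dixon's critical value, which chance gives in about 1 of 20 groups. Of 88 groups 6 held such a library. Chd8 was at 1640.4 in Mbd2-/- replicate 4 and at 1573 to 1579.5 in the others of its genotype, and all of these lay below the wild-type libraries. Arid1a was at 1996 in Mbd2-/- replicate 3 and at 2250.0 to 2301 in the others, and its call was lost without that library, as without 6 others. Setd1a was at 635 in wild-type replicate 4 and at 706 to 719 in the others. Smarcd1 was at 1523 in wild-type replicate 1 and at 1426 to 1438 in the others. Setd3 was at 2035 in wild-type replicate 1 and at 1829.7 to 1836 in the others. The partner gene Hcfc1 was at 1905 in Mbd2-/- replicate 3 and at 2094 to 2109 in the others. The cause of these gaps was not tested.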

How the results depend on the processing

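The count of 18 members called lower was the same 18 genes with DESeq2, edgeR or limma-voom on recovered reads, TMM or upper-quartile scaling, pseudocounts of 0.5 or 5 and a mean of at least 50, and 14 of the 18 were called without a filter. It was 5 with the length trend removed, 28 with the GC trend removed and 7 to 31 with 1 library left out. The count of members called higher, 1, was 2 with DESeq2, 2 with edgeR, 2 with a mean of at least 50, 4 with the length trend removed, 5 with the GC trend removed and 0 to 5 with 1 library left out. The gene added in the first 3 of these was Smarcd3. The 31 and the 5 came without Mbd2-/- replicate 4, the 7 without wild-type replicate 3. Over all genes, 1450 were called lower and 1735 higher. With the length trend removed these were 964 and 1130, with the GC trend removed 2377 were lower, and with 1 library left out 868 to 2559 were lower. The count of partner genes called lower, 11 of 85, was 7 with DESeq2, 7 without a filter, 2 and 27 with the length or the GC trend removed and 1 to 30 with 1 library left out, and the count called higher, 5 of 85, was 3 with DESeq2, 3 with limma-voom, 3 without a filter and 0 to 10 with 1 library left out. The median log2 fold change of the members, -0.10, was -0.0025 with the length trend removed, which is above that of all genes (-0.0091), and lay below that of all genes in the other 19 alternatives. The log2 fold change of Mbd2 was -0.40 to -0.39 in the 3 fits that lost its call, which left out wild-type replicate 3 or one of Mbd2-/- replicates 1 and 2. Its lowest and highest values with 1 library left out were -0.56 and -0.35. Among the 43 named genes other than Mbd2, signs changed in 5 cases, none of them called after the change. Sign changes of other genes were not counted here. With the length trend removed the log2 fold change was 0.012 for Arid1b, 0.092 for Setd7 and 0.050 for Smarcc2, and Chd3os was at 0.0067 without wild-type replicate 2 and at 0.0093 without Mbd2-/- replicate 3, in a range of -0.053 to 0.0093 with 1 library left out. Of 856 values of the 43 named genes other than Mbd2 under alternatives, 652 kept their direction and side of the threshold, 195 kept their direction but lost the call and 4 gained one. Apart from fits with fewer libraries or genes, the cause of these changes was not tested.

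With the replicate number as a block (replicate block), 16 members were called lower, without Arid1b and Smarcd1, and 3 were called higher, Hdac5, Kat5 and Smarcd3, beside 9.99% and 12.0% of all genes in that fit. Deviations of same-numbered libraries from their group means correlated between -0.10 and 0.07, so that the numbers do not pair the libraries and the block is no test of the effect.

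Libraries were pools of 2 mice and 4 per genotype. Leaving out Mbd2-/- replicate 4 or removing the trend with transcript length changed which members passed. Markers of other cell types and of neighbouring tissue differed between the genotypes, and levels per cell were not measured. Reads on overlapping genes could not be assigned by strand.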
